A study of Mus musculus with 9 samples.

Results

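The nuclear receptor superfamily was followed across lines from MYCCaP tumours that regrew after castration of the host mice. MYCCaP cells derive from a mouse prostate carcinoma in an animal whose MYC transgene is driven in prostate epithelium by a probasin-based, androgen-responsive promoter. The members were 46 receptor genes given by symbol, of which 44 had a probe set named for that gene alone, out of 22180 genes named on the array. Nr1h2, which encodes a liver X receptor, and Nr2e3, a photoreceptor receptor, had none and were not measured. Receptors outside this list were not analysed here.

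Gene expression in the cultured cells was read on 9 Affymetrix arrays of the type Mouse Gene 2.0 ST. The AZD1208 group held 3 lines from mice given AZD1208, an inhibitor of the PIM serine/threonine kinases, and the Vehicle group held 3 lines from mice given vehicle; both were grown without dihydrotestosterone (DHT), an androgen. Both groups together are called the recurrent lines below. The parental group was the MYCCaP line grown with DHT, and its 3 arrays are labelled technical replicates, so they count as 1 sample. All 9 arrays carry the MYCCaP label, and the sources used here do not state whether any line is a clone or whether 2 lines share a mouse. Recurrence in castrated animals and growth without DHT differ together between recurrent and parental cells, and their parts cannot be told apart.

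Nuclear receptors are transcription factors with a zinc-finger DNA-binding domain and a pocket that, in many members, binds a small fat-soluble ligand. Steroid receptors are held by chaperones until hormone arrives and then act as homodimers. Receptors for thyroid hormone, retinoic acid, vitamin D, fatty acids, oxysterols and bile acids mostly act as heterodimers with a retinoid X receptor and exchange corepressors for coactivators when ligand binds. Orphan members have no established natural ligand and are governed largely by how much of them a cell makes. In prostate epithelium, androgen is the ruling steroid signal, and other receptors, the glucocorticoid receptor among them, have been studied as routes by which tumours escape castration.

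Of 12 measured luminal prostate markers, 8 were above the level defined in the next paragraph in all 6 recurrent lines, a level that 55.1% of all named genes passed. They included Krt8 (8.24 to 10.44), Foxa1 (11.71 to 12.13) and Hoxb13 (8.44 to 8.92), all as log2 intensities over the 6 lines. Markers of other cells passed it too, with 4 of 4 basal epithelial, 5 of 6 neuroendocrine and 6 of 9 fibroblast markers above it in all 6 lines. Of the luminal markers, Epcam, Cldn7 and the androgen-dependent probasin gene Pbsn were above it in no line, nor in the parental mean, and Tmprss2 was above it in 1 line. AZD1208 3 stood apart: its values had an interquartile range of 2.87, against 2.98 to 3.12 on the other 8 arrays, and a median of 6.36, against 6.22 to 6.305. Dim genes therefore read slightly high on that array, and this touches the dimmer receptors named below.

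The deposited values carry no detection calls, so receptors were set beside 1405 probe sets for olfactory and vomeronasal receptors, genes that cultured prostate cells are not known to use. The 95th percentile of those probe sets in each sample, 6.08 to 6.37 in the 6 recurrent lines and 6.22 in the parental mean, is called the olfactory level. Probe sets differ in brightness for the same amount of RNA, so a value above it is a description and not proof of expression, and levels of different receptors are not ranked. In all 6 recurrent lines 28 of 44 receptors (63.6%) were above the olfactory level, against 55.1% of all named genes, and the same 28 were above it in the parental mean. A further 9 were above it in some lines and 7 in none. All told, 33 of 44 receptors were above it in the parental mean, against 13581 of 22180 named genes (61.2%). With the 99th percentile as the level, 17 of 44 receptors (38.6%) were above it in all 6 lines, against 37.0% of all named genes, so the receptors' share was near that of all genes at the stricter level.

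**Figure D1:**
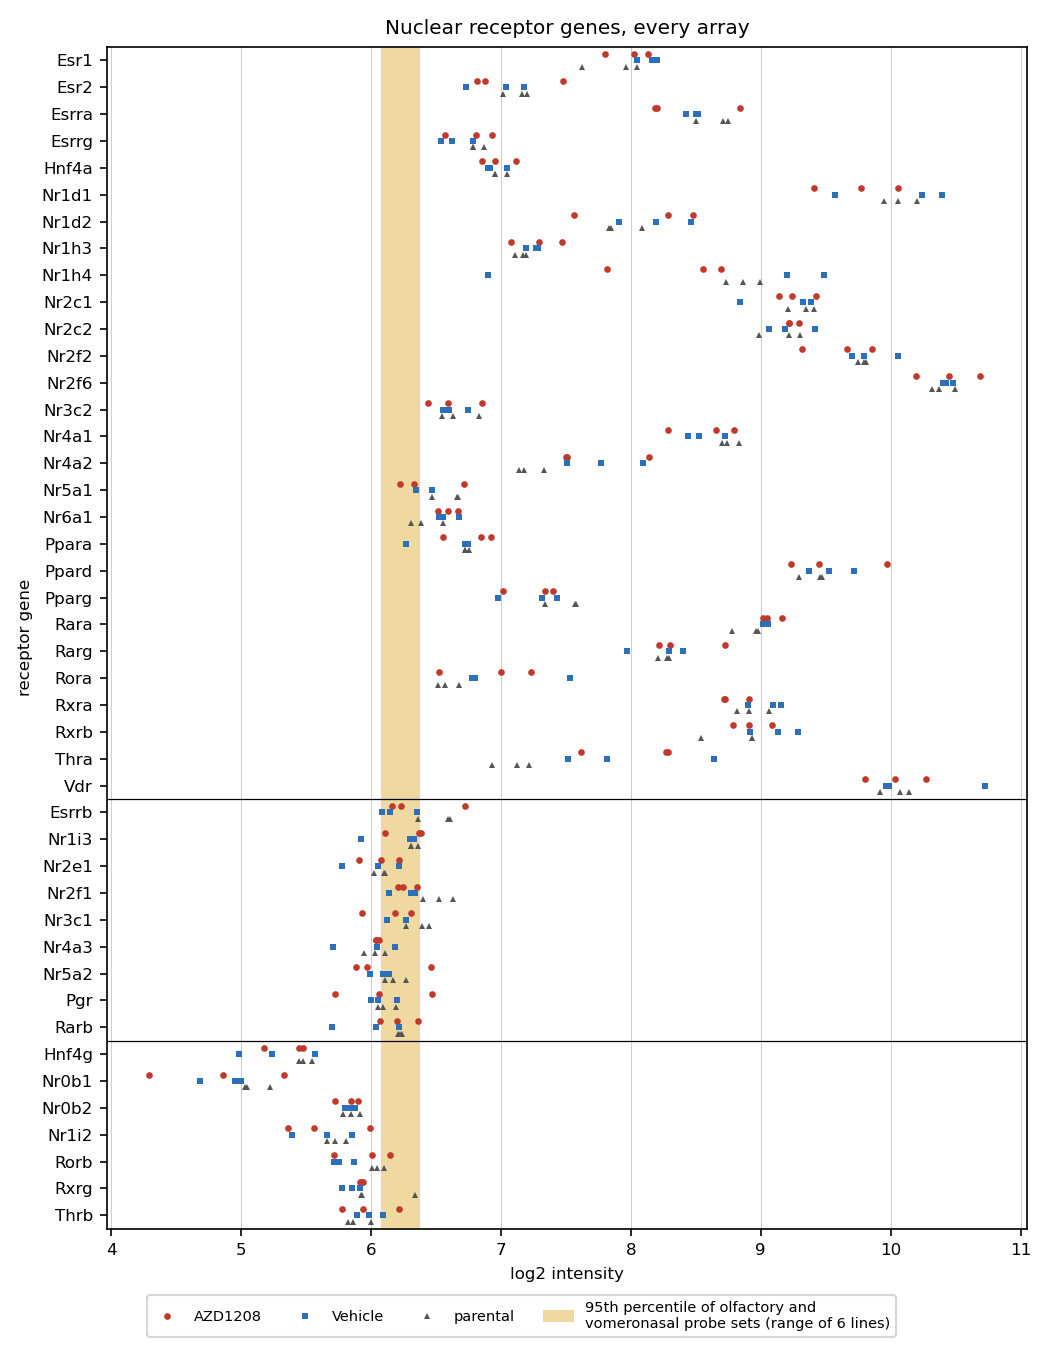
Log2 intensity (horizontal axis) of each of the 44 measured receptor genes (vertical axis, alphabetical within 3 blocks) in AZD1208 lines (circles), Vehicle lines (squares) and the 3 technical parental arrays (triangles); the band is the range of the olfactory level over the 6 recurrent lines. The upper block holds the 28 receptors above their sample's level in all 6 lines, the middle block the 9 above it in some, and the lower block the 7 above it in none.

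The 17 receptors above the stricter level were Esr1, Esrra, Thra, Rara, Rarg, Rxra, Rxrb, Ppard, Vdr, Nr1d1, Nr1d2, Nr2c1, Nr2c2, Nr2f2, Nr2f6, Nr4a1 and Nr4a2. The other 11 above the olfactory level in every line were Esr2, Nr3c2, Esrrg, Ppara, Pparg, Rora, Nr1h3, Nr1h4, Nr5a1, Nr6a1 and Hnf4a. Receptors above it in some lines were Pgr, Nr3c1, Esrrb, Rarb, Nr1i3, Nr2e1, Nr2f1, Nr4a3 and Nr5a2. Those above it in none were Thrb, Rxrg, Rorb, Nr0b1, Nr0b2, Nr1i2 and Hnf4g. By subfamily, 12 of 17 measured NR1 receptors (thyroid hormone, retinoic acid, fatty acid, sterol and vitamin D receptors and their orphan kin) were above it in all 6 lines. The counts were 7 of 11 for NR2 (retinoid X, HNF4, testicular and COUP receptors), 5 of 8 for NR3 (steroid and estrogen-related receptors) and 2 of 3 for NR4. Within isotype families the probe sets fell on different sides of the level. Rxra and Rxrb were above it in every line and Rxrg in none, Rara and Rarg in every line and Rarb in 2. Thra was above it in every line and Thrb in none. Because probe sets differ in brightness, this does not rank the isotypes. Among the 16 receptors not above it in every line, 12 had their highest recurrent value in AZD1208 3, the array on which dim genes read high, as did 7 of the 28 receptors above it.

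Of the steroid receptors, Nr3c1, the glucocorticoid receptor, had log2 intensities of 6.18, 5.93 and 6.31 in AZD1208 lines and 6.27, 6.13 and 6.27 in Vehicle lines, against 6.27, 6.39 and 6.44 on the parental arrays. It was above the olfactory level in 3 of 6 recurrent lines, and no recurrent line exceeded the highest parental array. The recurrent lines differed from the parental sample by -0.19 on the log2 scale (SE 0.21; adjusted p = 0.9997, limma). Values of genes that the glucocorticoid receptor is known to control are given further below. Nr3c2, the mineralocorticoid receptor, read 6.59, 6.44 and 6.86 in AZD1208 lines and 6.55, 6.60 and 6.75 in Vehicle lines, against 6.84, 6.63 and 6.55 in parental cells, with all groups overlapping (recurrent minus parental -0.04, SE 0.22). Its other probe set lay below the olfactory level on every array, at 4.76 to 5.27 in the recurrent lines. Pgr, the progesterone receptor and a classical estrogen-induced gene, read 6.06, 5.72 and 6.47 in AZD1208 lines and 6.0, 6.05 and 6.2 in Vehicle lines, against 6.05, 6.09 and 6.19 in parental cells. It was above the olfactory level in 2 lines, with its highest value in AZD1208 3 (recurrent minus parental -0.03, SE 0.28).

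Esr1, estrogen receptor alpha, was above the stricter level on every recurrent line, at 8.02, 8.13 and 7.80 in AZD1208 lines and 8.20, 8.17 and 8.05 in Vehicle lines, against 8.05, 7.97 and 7.63 on parental arrays. All groups overlapped, and recurrent minus parental was 0.18 (SE 0.20). That value was 0.05 without parental array 3 and 0.09 with quantile normalization. Esr2, estrogen receptor beta, read 6.88, 6.82 and 7.48 in AZD1208 lines and 7.04, 6.73 and 7.18 in Vehicle lines, against 7.02, 7.16 and 7.20 in parental cells (recurrent minus parental -0.11, SE 0.30). AZD1208 3 again held its highest value, and the difference was -0.21 without that line, -0.06 without AZD1208 1, -0.05 without AZD1208 2, -0.04 without Vehicle 2, -0.16 without parental array 1 and -0.07 without parental array 3. The estrogen-related receptors, orphan regulators of mitochondrial genes, did not stand apart: recurrent minus parental lay at -0.21 for Esrra, -0.24 for Esrrb and -0.10 for Esrrg, each smaller than its SE.

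Among receptors that bind bile acids, sterols and vitamins, Nr1h4 varied most. It encodes FXR, the bile acid receptor, known chiefly from liver and intestine. Nr1h4 had log2 intensities of 8.56, 7.81 and 8.69 in AZD1208 lines and 6.90, 9.20 and 9.49 in Vehicle lines, against 8.87, 9.0 and 8.73 on parental arrays. Vehicle 1 was far below every other array and Vehicle 3 and Vehicle 2 were above all parental arrays, so that the 3 Vehicle lines spanned more than the AZD1208 lines. The 6 lines spanned 2.59 on the log2 scale, a 6.0-fold range. Of 15526 genes tested, 170 (1.10%) had a wider range over the 6 lines, and the median range was 0.63. Nr1h4 was the only one of 41 tested receptors past the 90th percentile of that range (1.29), and the median receptor range was 0.49. Without Vehicle 1 the lines spanned 1.67. The group means did not separate: AZD1208 lines averaged 8.35 ± 0.47 and Vehicle lines 8.53 ± 1.42 (SD, n = 3 each), and AZD1208 minus Vehicle was -0.18 (SE 0.65; adjusted p = 1, limma), a value that single lines turned to between -0.99 and 0.30 when left out. Recurrent minus parental was -0.42 (SE 0.86).

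Of the genes that FXR is best known to switch on, Fgf15 was above the olfactory level in all 6 lines. So were 55.1% of all named genes, and Fgf15 was below the stricter level in every line. Nr0b2, Slc51a and Abcb11 were above the olfactory level in none. Nr0b2, which encodes SHP, a receptor without a DNA-binding domain that FXR induces in liver, stayed between 5.72 and 5.90 in the 6 lines and between 5.79 and 5.92 on parental arrays, below the olfactory level everywhere. Slc51a, a subunit of the bile acid exporter, read 5.85, 5.59 and 5.88 in AZD1208 lines and 6.01, 5.20 and 5.76 in Vehicle lines, against 5.74 to 5.85 in parental cells, and its highest value was in Vehicle 1, where Nr1h4 was lowest. Abcb11, the bile salt pump, lay between 4.72 and 5.55 in the 6 lines and Fgf15, the intestinal hormone that FXR induces, between 6.30 and 6.72, against 6.59 to 6.80 on parental arrays for Fgf15. Slc51a and Abcb11 were named after their values were seen, as known FXR targets on the list described below.

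The 250 bases before the RefSeq start site of Nr1h4 (build GRCm38.p6) are shown because no other receptor varied as much between the lines. The capitals mark its 1 match to AGGTCA, the element many nuclear receptors bind, which lies on the opposite strand.
Nr1h4 (chr10:89506659-89506908, minus strand): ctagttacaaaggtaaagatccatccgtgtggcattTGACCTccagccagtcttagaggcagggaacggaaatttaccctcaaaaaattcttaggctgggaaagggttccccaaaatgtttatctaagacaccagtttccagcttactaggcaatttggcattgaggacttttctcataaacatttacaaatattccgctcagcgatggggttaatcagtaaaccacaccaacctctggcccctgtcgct
AGGTCA on either strand was present in 14.0% of 32851 RefSeq windows of this length and in 11 of the receptors' 63 windows (17.5%). No CACGTG (E-box, bound by MYC and by clock factors) or TGACG was present in this window.

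Thra, thyroid hormone receptor alpha, had the largest recurrent minus parental difference. Its values were 8.27, 8.29 and 7.62 in AZD1208 lines and 8.64, 7.52 and 7.82 in Vehicle lines, against 7.13, 6.93 and 7.22 on parental arrays. Every recurrent line was above every parental array. The difference was 0.93 (SE 0.43; 1.91-fold), at an unadjusted p of 0.0639 that did not pass over all genes (adjusted p = 0.9997, limma), and it ran from 0.77 to 1.05 with single arrays left out. AZD1208 minus Vehicle was 0.07 (SE 0.32). Thrb, the beta form, was below the olfactory level in every recurrent line, at 5.78 to 6.21. Thra and Nr1d1 overlap in the RefSeq table. Esrra, Thrb, Rara, Nr1h3, Nr1i3, Nr2c2 and Nr4a2 each overlap another protein-coding gene there. Whether the probe sets of any of these receptors lie in a shared stretch was not checked.

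Rora, which drives clock gene transcription, read 7.0, 7.23 and 6.53 in AZD1208 lines and 7.53, 6.80 and 6.78 in Vehicle lines, against 6.68, 6.57 and 6.52 on parental arrays. It was above all parental arrays in 5 of 6 lines, the exception being AZD1208 3 (recurrent minus parental 0.39, SE 0.36). Nr1d1, or REV-ERB alpha, represses the same clock elements that Rora activates. It read 10.05, 9.41 and 9.77 in AZD1208 lines and 10.40, 9.57 and 10.24 in Vehicle lines, against 10.20, 9.95 and 10.06 on parental arrays, with the lowest value in AZD1208 2 and the highest in Vehicle 1 (AZD1208 minus Vehicle -0.33, SE 0.27; -0.03 with array quality weights). Rorb, a form known from brain and retina, was below the olfactory level in every line, at 5.71 to 6.15 (AZD1208 minus Vehicle 0.18, SE 0.16). That difference was 0.02 with array quality weights. Across the 6 lines the range was 1.01 for Rora and 0.99 for Nr1d1.

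Vdr, the vitamin D receptor, read 10.03, 10.28 and 9.80 in AZD1208 lines and 10.73, 9.96 and 9.99 in Vehicle lines, against 10.14, 10.07 and 9.92 on parental arrays. Vehicle 1 was 0.69 above the parental mean and the other lines lay within 0.24 of it. AZD1208 minus Vehicle was -0.19 (SE 0.25) and turned to 0.06 without Vehicle 1. Cyp24a1, the vitamin D-degrading enzyme and its most sensitive target, stayed at 5.70 to 6.48 in the recurrent lines, against 6.24 to 6.4 on parental arrays. Among the lines, Cyp24a1 was above the olfactory level in AZD1208 3 and Vehicle 3 alone.

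Vehicle 1 and AZD1208 2 were the highest lines for Thra, Rora and Vdr and the lowest for Nr1h4, a grouping noticed after the values were seen. For Thra the margin was small, since AZD1208 1 read 8.27 beside 8.29 in AZD1208 2. The same lines stood out for the fibroblast, luminal and basal marker lists, but not for every list. The macrophage and leukocyte mean was highest in Vehicle 2 (6.66), then in AZD1208 2 (6.51) and Vehicle 1 (6.36). The neuroendocrine mean was highest in AZD1208 3 (7.59). The mean log2 level of 9 fibroblast markers was highest in AZD1208 2 (7.35) and Vehicle 1 (6.89), against 6.61 to 6.80 in the other 4 lines and 6.26 in the parental mean, and that of 12 luminal markers was lowest in Vehicle 1 (7.39) and AZD1208 2 (7.40), against 7.57 to 7.70 in the other 4 lines and 7.73 in the parental mean. The mean of 4 basal epithelial markers was also highest in Vehicle 1 (7.96) and AZD1208 2 (7.67), against 6.51 to 7.33 in the other 4 lines and 7.52 in the parental mean. Of the fibroblast markers 6 of 9 were above the olfactory level in all 6 lines, Lum and Fap in none and Dcn in AZD1208 2 alone. Pdgfra, at 8.24 to 10.03 in the 6 lines, and Postn, at 7.86 to 12.72, carried the fibroblast mean. Without them the other 7 averaged 6.23 in AZD1208 2 and 6.10 in Vehicle 1, against 5.95 to 6.31 in the other 4 lines and 6.22 in the parental mean, and that order was lost. Krt15 carried much of the basal mean, with 10.42 in Vehicle 1 and 10.12 in AZD1208 2, against 6.34 to 9.14 in the other 4 lines. The remaining 3 basal markers averaged 7.14 in Vehicle 1 and 6.86 in AZD1208 2, against 6.57 to 6.83 in the other 4 lines. The luminal mean without Krt8 was 7.29 in Vehicle 1 and 7.33 in AZD1208 2, against 7.34 to 7.51 in the other 4 lines. These leave-out means were chosen after the values were seen. In cultured lines measured in bulk, a change in the mix of cells and a change in RNA per cell cannot be told apart, and the part of these markers in the receptor values was not tested.

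**Figure D2:**
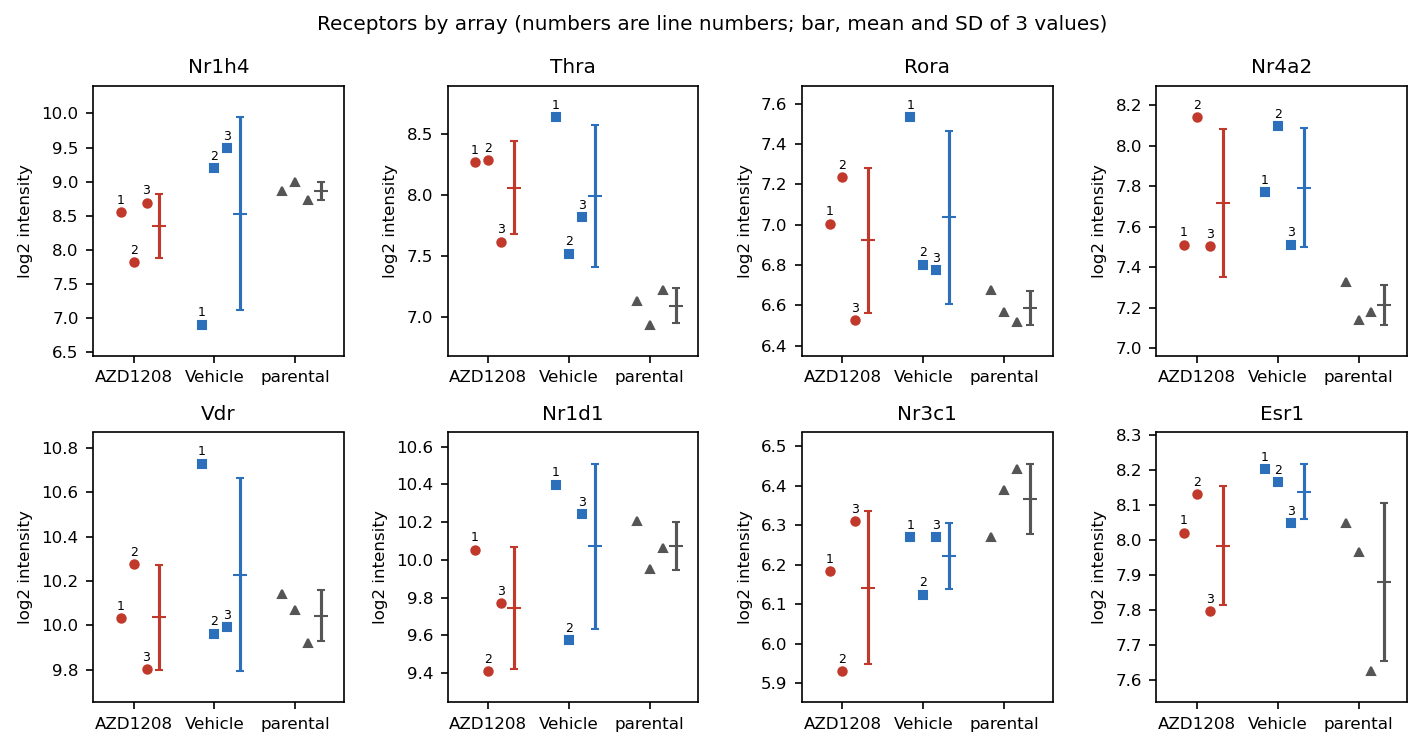
Log2 intensity (vertical axes, each with its own scale) of 8 receptors in AZD1208 lines (circles), Vehicle lines (squares) and technical parental arrays (triangles); small numbers give the line, and each bar the mean and SD of 3 values. Vehicle 1 was lowest for Nr1h4 (6.90) and highest for Thra, Rora and Vdr, and all 6 lines lay above the parental arrays for Thra and Nr4a2.

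Among the retinoid receptors, Rara had a range of 0.15 over the 6 lines, the narrowest of all 44 receptors. Its values were 9.04, 9.16 and 9.02 in AZD1208 lines and 9.02, 9.03 and 9.06 in Vehicle lines, all above the parental arrays (8.98, 8.78 and 8.97), with a recurrent minus parental difference of 0.15 (SE 0.18). Rara was named after its values were seen. The other retinoic acid receptors varied more, with a range of 0.75 for Rarg and 0.66 for Rarb, against a median of 0.49 over receptors. Rarb, itself a target of retinoic acid, read 6.07, 6.2 and 6.36 in AZD1208 lines and 6.22, 5.70 and 6.04 in Vehicle lines, against 6.22, 6.21 and 6.24 on parental arrays, and AZD1208 minus Vehicle was 0.23 (SE 0.18; 0.08 without Vehicle 2).

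Of the retinoid X receptors, the shared partners, Rxra had the smallest unadjusted p of any member between treatments. Rxra read 8.91, 8.71 and 8.73 in AZD1208 lines and 9.15, 9.10 and 8.90 in Vehicle lines, against 8.91, 8.82 and 9.06 on parental arrays. The groups of lines overlapped at AZD1208 1 and Vehicle 3 (AZD1208 minus Vehicle -0.27, SE 0.15, unadjusted p = 0.114, adjusted p = 1, limma). Rxrb read 9.09, 8.91 and 8.78 in AZD1208 lines and 9.13, 8.92 and 9.29 in Vehicle lines, against 8.94, 8.54 and 8.94 on parental arrays. AZD1208 minus Vehicle was -0.19 (SE 0.17; -0.06 with array quality weights), and recurrent minus parental was 0.22 (SE 0.22; 0.08 without parental array 2). Pparg, the fat cell regulator, read 7.34, 7.40 and 7.02 in AZD1208 lines and 6.98, 7.43 and 7.32 in Vehicle lines, against 7.57, 7.58 and 7.34 on parental arrays (recurrent minus parental -0.25, SE 0.25).

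The COUP receptors Nr2f1 and Nr2f2 are orphan regulators of development. Nr2f1 was below all parental arrays in all 6 lines, at 6.35, 6.21 and 6.25 in AZD1208 lines and 6.31, 6.14 and 6.34 in Vehicle lines, against 6.52, 6.4 and 6.63. These values sit at the olfactory level, which Nr2f1 passed in 4 of 6 lines, and recurrent minus parental was -0.25 (SE 0.19). Nr2f2 read 9.31, 9.86 and 9.67 in AZD1208 lines and 9.70, 10.06 and 9.80 in Vehicle lines, against 9.81, 9.80 and 9.75 on parental arrays. AZD1208 minus Vehicle was -0.24 (SE 0.19), which became -0.47 under array quality weights and -0.09 once AZD1208 1 was left out. The NR0 receptors Nr0b1, or DAX1, and Nr0b2 were above the olfactory level in no line. Nr0b1 spanned 4.29 in AZD1208 2 to 5.33 in AZD1208 3 and, with Nr1i2 and Hnf4g, fell under the filter on low values and was not tested in the comparisons.

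The NR4A receptors are immediate early genes, made within minutes of growth factor or cyclic AMP signals, and need no ligand. Nr4a2 stood above the parental line in all 6 recurrent lines, at 7.51, 8.14 and 7.50 in AZD1208 lines and 7.77, 8.10 and 7.51 in Vehicle lines, against 7.33, 7.14 and 7.18 on parental arrays. Recurrent minus parental was 0.54 (SE 0.32; 1.45-fold; unadjusted p = 0.128, adjusted p = 0.9997, limma). Nr4a1 ran the other way, with 8.29, 8.80 and 8.65 in AZD1208 lines and 8.44, 8.73 and 8.53 in Vehicle lines, against 8.74, 8.70 and 8.84 on parental arrays. No line was above the highest parental array and 4 were below the lowest (recurrent minus parental -0.19, SE 0.24; -0.11 without AZD1208 1). Nr4a3 lay at 6.04, 6.04 and 6.06 in AZD1208 lines and 6.05, 5.71 and 6.19 in Vehicle lines, against 6.03, 5.94 and 6.11 on parental arrays, and was above the olfactory level in 1 line (recurrent minus parental -0.01, SE 0.22).

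The windows of 250 bases before the RefSeq start sites of the NR4A genes (GRCm38.p6) are shown together because the genes share a signal-responsive promoter type while their values here differed. The capitals mark TGACG on either strand, the core of the cyclic AMP response element that CREB binds.
Nr4a1 (chr15:101266596-101266845, plus strand): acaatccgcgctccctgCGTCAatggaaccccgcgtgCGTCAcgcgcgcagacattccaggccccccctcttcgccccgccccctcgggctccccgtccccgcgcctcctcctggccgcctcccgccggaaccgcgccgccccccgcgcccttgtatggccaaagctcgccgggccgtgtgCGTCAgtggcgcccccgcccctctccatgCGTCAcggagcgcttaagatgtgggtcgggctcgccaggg
Nr4a2 (chr2:57124004-57124253, minus strand): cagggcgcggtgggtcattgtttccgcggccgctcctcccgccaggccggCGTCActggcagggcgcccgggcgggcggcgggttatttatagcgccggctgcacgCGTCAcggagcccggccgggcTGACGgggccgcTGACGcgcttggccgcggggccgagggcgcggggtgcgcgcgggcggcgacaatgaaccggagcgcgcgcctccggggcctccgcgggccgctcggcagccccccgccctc
Nr4a3 (chr4:48045055-48045304, plus strand): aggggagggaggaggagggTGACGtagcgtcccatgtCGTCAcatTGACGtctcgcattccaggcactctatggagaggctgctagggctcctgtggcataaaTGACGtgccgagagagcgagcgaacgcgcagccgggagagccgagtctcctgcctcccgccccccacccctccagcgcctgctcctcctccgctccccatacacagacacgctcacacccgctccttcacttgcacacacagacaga
Each window held 4 matches, and none overlapped a match to either of the other motifs. The TGACG motif was present in 17.8% of the 32851 windows, and 4 or more matches in 0.14% of them. Among the 63 windows of the receptors, 13 (20.6%) held it.

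No receptor passed in any comparison. Between AZD1208 and Vehicle lines 0 of 41 tested receptors passed at an adjusted p under 0.05 (limma), as did 0% of the 15526 genes tested, and 0 receptors had an unadjusted p under 0.05, against 0.515% of all genes. The median difference of the 41 receptors was 0.01 and that of all genes -0.02, with 25 receptors higher and 16 lower. The smallest p among the receptors belonged to Rxra, Nr2f2, Rarb, Nr1d1, Rxrb and Rorb, given above. Rxrg was the only receptor for which all 3 AZD1208 lines (5.92, 5.93 and 5.94) lay above all 3 Vehicle lines (5.92, 5.85 and 5.78), below the olfactory level throughout. It makes 2.44% of the receptors, against 1.4% of all genes, and the reverse held for 0 receptors, against 1.96% of all genes.

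Against the parental sample, 0 of 41 receptors passed for the recurrent lines together, for Vehicle lines or for AZD1208 lines (limma), as did 0% of all genes in each. Unadjusted p under 0.05 was reached by 0 receptors in each, against 2.76%, 2.3% and 2.61% of all genes in that order. These comparisons share the parental sample. Median recurrent minus parental was -0.03 over receptors and -0.02 over all genes, with 15 receptors higher and 26 lower. All 6 lines lay above all 3 parental arrays for Thra, Rara and Nr4a2, which is 7.32% of the receptors against 6.91% of all genes, and below them for Nr2f1 alone, 2.44% against 5.09%. These shares are near those of all genes. For the separate groups, Thra stood at 0.97 in AZD1208 lines (SE 0.46) and 0.90 in Vehicle lines (SE 0.46) relative to the parental sample, and Nr4a2 at 0.50 (SE 0.34) in AZD1208 lines and 0.58 (SE 0.34) in Vehicle lines.

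**Figure D3:**
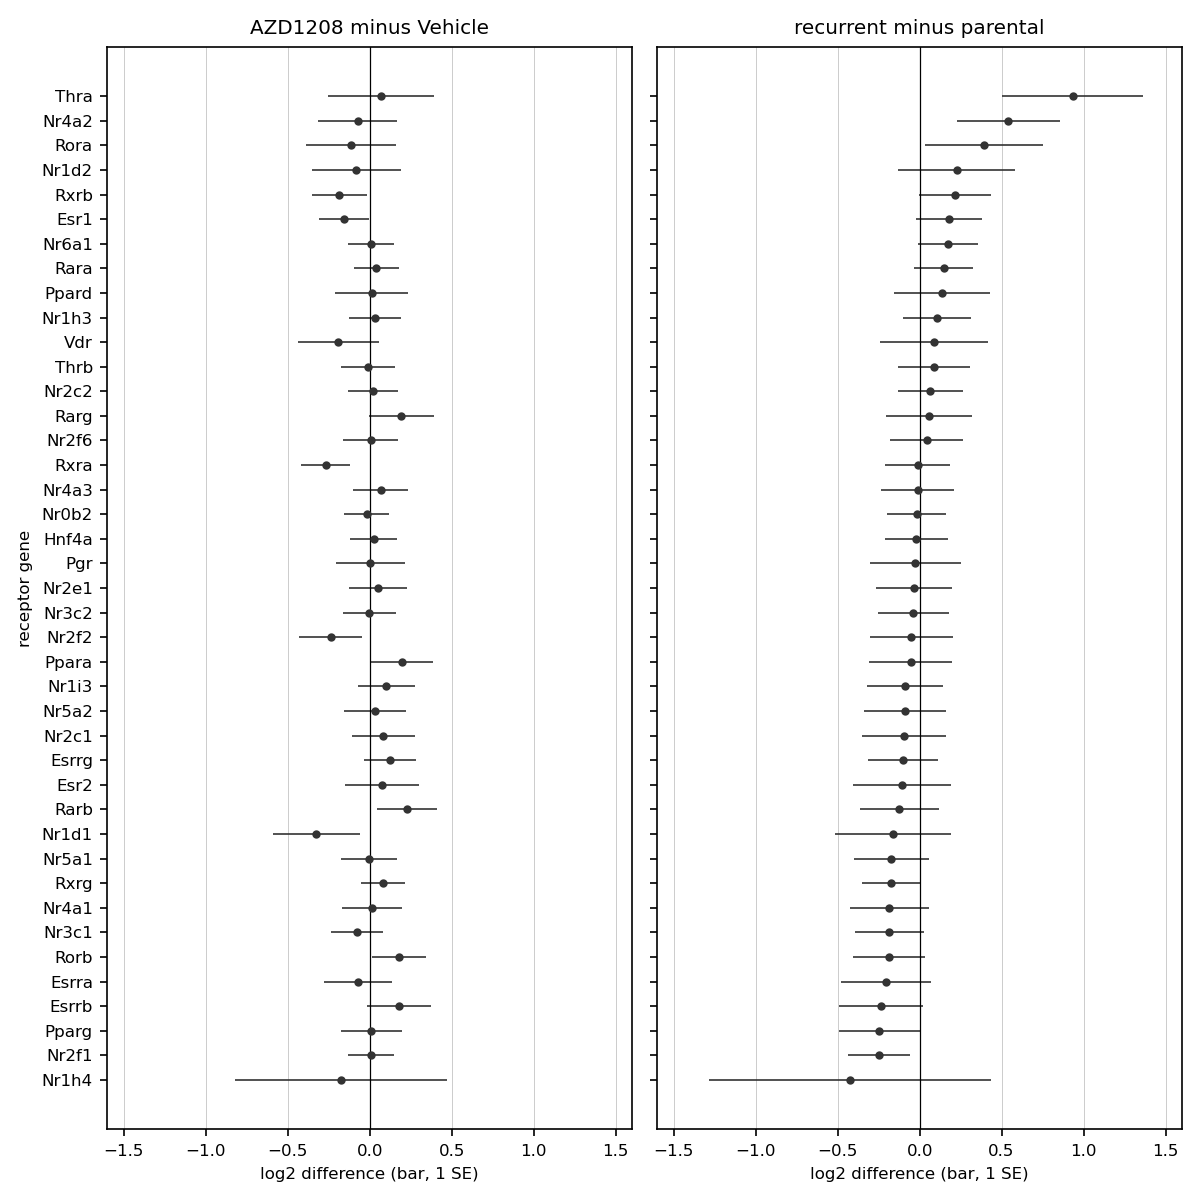
Log2 differences (horizontal axes) of the 41 tested receptors for AZD1208 minus Vehicle and for recurrent minus parental, ordered in both panels by the recurrent minus parental value; bars are 1 SE of the limma fit. Thra (0.93) and Nr4a2 (0.54) lie highest against the parental sample, Nr1h4 has the widest bars, and no receptor passed the adjusted threshold.

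**Figure D4:**
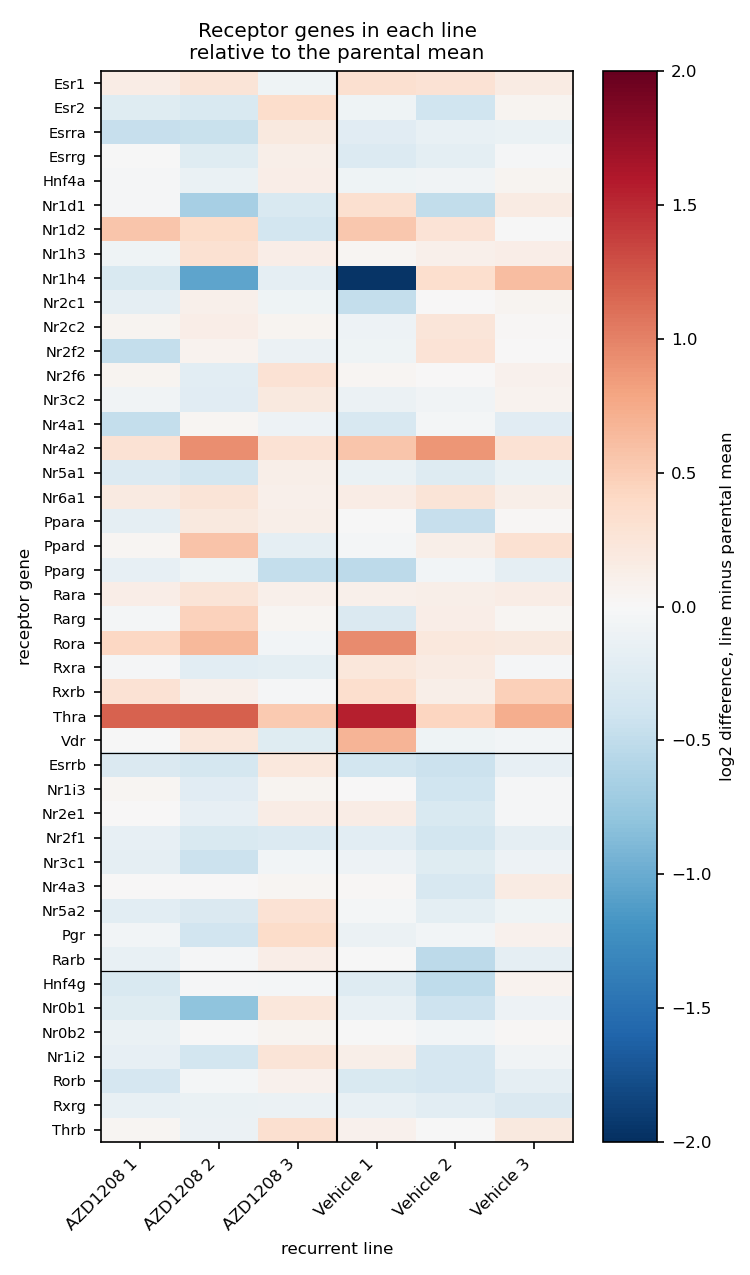
Log2 difference of each recurrent line (columns, AZD1208 left of Vehicle) from the parental mean for the 44 measured receptors (rows, in the 3 blocks of the plot of all arrays); the colour scale runs from lower (blue) to higher (red) than parental. The row of Thra is higher in all 6 lines, and the row of Nr1h4 runs from -1.96 in Vehicle 1 to 0.62 in Vehicle 3.

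The partners and known targets of these receptors were taken from 16 lists, and 0 of their tested genes passed in any of the comparisons (limma). Steroid receptor chaperones were lower in AZD1208 than in Vehicle lines for 12 of 12 genes, with a median of -0.14 against -0.02 over all genes. None had an unadjusted p under 0.05 (limma), against 0.515% of all genes. The share of all genes lower in AZD1208 lines was not counted. Some differences were very small: Hspa4 read 12.09, 12.12 and 11.96 in AZD1208 lines and 11.98, 12.09 and 12.11 in Vehicle lines. Fkbp5, a cochaperone that steroid receptors also induce, was at -0.25 (SE 0.15). Against the parental sample 9 of 12 were lower (median -0.12), led by Stip1 (-0.74, SE 0.38) and Fkbp4 (-0.69, SE 0.40). Coactivators were higher than parental for 11 of 17 genes (median 0.10), with Ncoa1, the p160 coactivator SRC-1, at 0.60 (SE 0.23), Ncoa2 at 0.51 (SE 0.26) and the acetyltransferase Ep300 at 0.43 (SE 0.24). Between treatments 13 of 17 were lower in AZD1208 lines (median -0.09), Carm1 among them (-0.32, SE 0.17). Corepressors were higher than parental for 6 of 11 (median 0.01) and lower in AZD1208 than in Vehicle lines for 10 of 11 (median -0.08). Between treatments no coactivator or corepressor had an unadjusted p under 0.05 (limma). For coactivators and corepressors too, the share of all genes lower in AZD1208 lines was not counted. AZD1208 3 had the narrowest spread of values. For AZD1208 minus Vehicle, quantile normalization moved Rxra from -0.27 to -0.20 and Rxrb from -0.19 to -0.11. Rora moved the other way, from -0.11 to -0.16. These shifts are near the size of the coactivator and corepressor medians, which were not recomputed under that setting.

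Among 15 glucocorticoid receptor targets, 10 were higher in recurrent lines than in the parental sample (median 0.16), and 3 had an unadjusted p under 0.05, a threshold that 2.76% of all genes passed. The 3 genes described next were picked by that p. Zbtb16, or PLZF, a repressor induced by several steroid hormones, read 10.0016, 10.24 and 10.24 in AZD1208 lines and 10.52, 10.43 and 10.22 in Vehicle lines, against 9.5, 9.56 and 9.26 on parental arrays (0.83, SE 0.21; 1.78-fold; adjusted p = 0.9997, limma). Ddit4, an inhibitor of mTORC1, read 9.54, 9.21 and 9.15 in AZD1208 lines and 10.08, 9.38 and 9.25 in Vehicle lines, against 8.31, 8.38 and 8.24 (1.13, SE 0.33; 2.18-fold). Pdk4, the kinase that shuts pyruvate out of mitochondria, was lower, at 9.49, 9.98 and 9.16 in AZD1208 lines and 9.80, 10.06 and 9.86 in Vehicle lines, against 10.72, 10.74 and 10.58 (-0.95, SE 0.30). For each of the 3 genes the recurrent and parental values did not overlap, as for 6.91% of all genes with the recurrent lines above and 5.09% with them below, and Pdk4 ran against Zbtb16 and Ddit4. Pdk4 also belongs to the targets of PPAR and estrogen-related receptors. Of 12 PPAR targets 9 were lower in recurrent lines (median -0.20), with Fabp4 at -1.67 (SE 0.75) and Acadm, an enzyme of fatty acid oxidation, at 0.71 (SE 0.29). Of 10 targets of estrogen-related receptors, a list that holds Esrra itself, 8 were lower (median -0.20). The 2 higher genes were Acadm, which is on this list too, and Ndufa4, a respiratory chain subunit, at 0.57 (SE 0.20).

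Retinoic acid receptor targets and genes that handle retinoids, taken as 1 list, were lower in recurrent lines for 11 of 15 (median -0.11). Stra6, the retinol uptake receptor and a retinoic acid target, read 6.57, 6.56 and 7.48 in AZD1208 lines and 7.52, 6.52 and 8.95 in Vehicle lines, against 9.20, 9.17 and 9.42 on parental arrays (-2.0, SE 0.77). All lines were lower, and Vehicle 3 was near the parental values. Rdh11, a retinal reductase of prostate, read 9.98, 9.93 and 9.98 in AZD1208 lines and 9.91, 10.43 and 10.28 in Vehicle lines, against 10.64, 10.77 and 10.75 (-0.64, SE 0.23). Aldh1a3, which makes retinoic acid, was higher in every line, at 8.85, 9.83 and 8.39 in AZD1208 lines and 9.55, 8.99 and 8.02 in Vehicle lines, against 7.74, 7.51 and 7.45 (1.37, SE 0.62), with its highest values in AZD1208 2 and Vehicle 1. Of 5 xenobiotic receptor targets 3 were higher (median 0.02), and Cyp2b10, the classical target of the receptor encoded by Nr1i3, read 7.70, 7.82 and 6.29 in AZD1208 lines and 9.66, 6.68 and 7.37 in Vehicle lines, against 5.32, 5.64 and 5.25 (2.18, SE 1.01). The parental values of Cyp2b10 and its value in AZD1208 3 lay below the olfactory level. Stra6, Rdh11, Aldh1a3 and Cyp2b10 were picked by smallest p, and for each the recurrent and parental values did not overlap. Of all genes tested, 6.91% had the recurrent lines above in this way and 5.09% below. Nr1i3 itself was close to the olfactory level, at 5.93 to 6.39 in the recurrent lines.

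For the remaining lists, recurrent minus parental medians, beside -0.02 over all genes, were 0.05 for 10 liver X receptor targets (7 higher), -0.10 for 9 estrogen receptor targets (2 higher), -0.17 for 5 vitamin D receptor targets (0 higher), -0.01 for 8 thyroid hormone genes (4 higher), 0.05 for 14 clock genes (8 higher), 0.10 for 13 immediate early genes (7 higher), 0.06 for 11 NR4A regulators and targets (6 higher) and -0.04 for 4 bile acid and HNF4 targets (1 higher). Dio2, which activates thyroid hormone, was at 0.62 (SE 0.31), Egr1, an immediate early factor, at 0.71 (SE 0.30), and Bhlhe40, a clock repressor, at -0.86 (SE 0.39). Between treatments, the liver X receptor target Scd1, a fatty acid desaturase, read 9.99, 10.08 and 10.75 in AZD1208 lines and 10.56, 11.57 and 10.90 in Vehicle lines, against 11.16, 11.29 and 10.97 on parental arrays (AZD1208 minus Vehicle -0.73, SE 0.31; unadjusted p = 0.0483, adjusted p = 1, limma), and AZD1208 3 overlapped the Vehicle lines. Pomc, an NR4A target in the pituitary, was at 0.40 (SE 0.15) and Bglap, the vitamin D target osteocalcin, at 0.50 (SE 0.20). Pomc read 6.12, 6.01 and 6.25 in AZD1208 lines and 5.60, 5.88 and 5.71 in Vehicle lines. It was above the olfactory level in AZD1208 1 alone. Bglap read 6.46, 6.67 and 7.13 in AZD1208 lines and 6.33, 6.13 and 6.30 in Vehicle lines. Its highest value was in AZD1208 3, where dim genes read slightly high, and Vehicle 2 was below the olfactory level. Clock genes were lower in AZD1208 than in Vehicle lines for 12 of 14 (median -0.12), led by Ciart (-0.41, SE 0.23). None of them had an unadjusted p under 0.05 in that comparison (limma). The share of all genes lower in AZD1208 lines was not counted, and the clock gene median was not recomputed with quantile normalization.

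**Figure D5:**
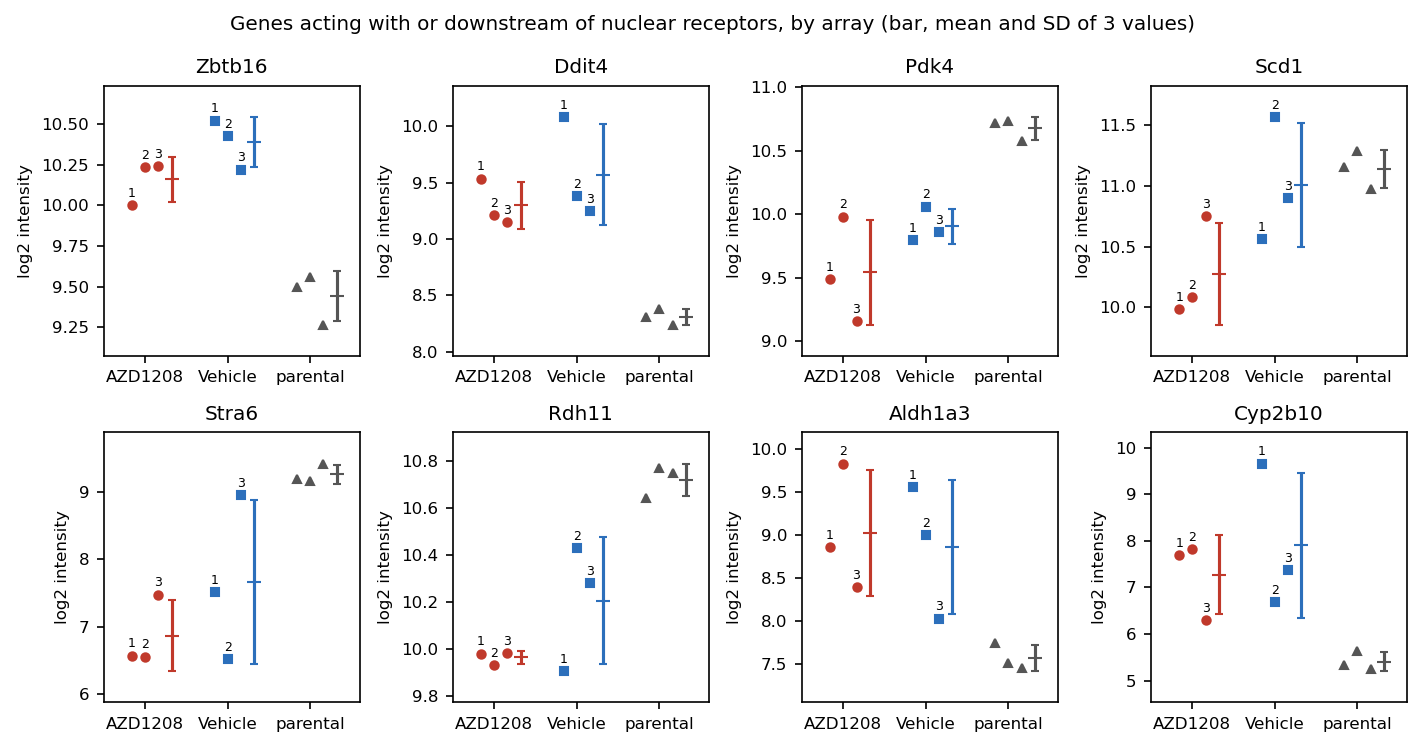
Log2 intensity (vertical axes, each with its own scale) of 8 genes known to act with or downstream of nuclear receptors in AZD1208 lines (circles), Vehicle lines (squares) and technical parental arrays (triangles); bars give the mean and SD of 3 values. Zbtb16, Ddit4, Aldh1a3 and Cyp2b10 were higher, and Pdk4, Stra6 and Rdh11 lower, in all 6 recurrent lines than on every parental array. Of all genes tested, 6.91% were higher and 5.09% lower in this way. The genes shown were picked from their lists by smallest p, which favours such separation.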

How the data were processed

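The deposited table holds log2 intensities, 1 per probe set and array, which the authors made with oligo, per the submitters' processing notes. The sources used here give no version and do not state how background, normalization and probe summary were handled; array medians lay between 6.22 and 6.36. Probe sets were named from the platform annotation (23521 with 1 symbol, 1814 with several, 16010 unlisted), with Entrez identifiers checked against RefSeq. The brightest probe set stood for a gene. Genes in the lowest 30% by mean level (under 5.82) were not tested, so that 15526 genes remained, among them 41 of the 44 measured receptors. The parental arrays were averaged, and the 7 samples were fitted in R 4.3.3 by limma 3.58.1 on a design of group alone (4 residual and 3.37 prior degrees of freedom) and Benjamini-Hochberg adjustment over all genes tested (threshold 0.05). The lone parental sample is assumed to vary like the lines. The residual spread behind the p-values comes from the 3 AZD1208 and 3 Vehicle lines, moderated over all genes tested. The small number of lines limits the precision. The procedure was tested on simulated data for AZD1208 minus Vehicle alone, with the spread taken from the AZD1208 lines. It recovered 44.8% of changes of 1 log2 unit, 68.7% of changes of 2 and 93.9% of changes of 3. Most changes of 1 log2 unit were thus missed in that setting.

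The members and lists were chosen with earlier results of these data known. Receptors given array by array were the steroid and NR4A receptors, the 6 of smallest p in AZD1208 minus Vehicle and in recurrent minus parental, and the 6 of widest range. Up to 3 genes of smallest p per list were named. Promoter sequences are RefSeq's (GRCm38.p6). Deviations of same-numbered AZD1208 and Vehicle lines from their group means correlated at 0.147, 0.119 and 0.531 over the genes tested, so the numbers were treated as a possible pairing, from the data and not the labels. AZD1208 2 and Vehicle 1, which share no number, correlated at 0.263.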

Additional observations from a re-analysis of the deposited data

How the results depend on the processing

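No receptor passed under any setting tried: other filters, quantile normalization, median centring, mean probe sets, array quality weights, an intensity trend, separate parental arrays, single arrays left out, or the replicate number as a block, which gave 0 genes for AZD1208 minus Vehicle and changed no call. Treating the 3 technical parental arrays as separate samples gave 53 genes for Vehicle minus parental, 41 for AZD1208 minus parental and 156 for recurrent minus parental. They held 1 list gene for Vehicle minus parental (Zbtb16) and 4 for recurrent minus parental (Zbtb16, Ddit4, Pdk4 and Ndufa4). That setting counts technical spread as spread between samples. Array quality weights gave 2 genes for AZD1208 minus parental (Hp and Igfbp5) and 1 for recurrent minus parental (Igfbp5), and single arrays left out gave 0 to 1 for AZD1208 minus parental (Hp, without Vehicle 1). These genes were named after their values were seen.

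With single arrays left out, AZD1208 minus Vehicle ran from -0.99 to 0.30 for Nr1h4, from -0.17 to 0.39 for Thra, from -0.27 to 0.13 for Rora and from -0.32 to 0.0598 for Vdr. The value kept its sign but moved by over 1.5 times for Nr1d1 (-0.58 to -0.16), Rxrb (-0.28 to -0.10), Rorb (0.09 to 0.30), Rarb (0.08 to 0.34) and Nr2f2 (-0.36 to -0.09), and for Rxra only with array quality weights (-0.17). With array quality weights Rora turned to 0.0791. Recurrent minus parental ran from -0.10 to 0.0436 for Nr3c2, from -0.12 to 0.0637 for Pgr and from -0.0646 to 0.0552 for Nr4a3, and the mean of both Nr3c2 probe sets gave 0.0062. The range of Nr1h4 over the lines ran from 1.67 to 2.59. Of 394 recomputed receptor differences, 376 kept their direction and side of the threshold and 18 turned. The count is no measure of robustness, because many of these could not turn. Settings that touch only the parental arrays leave AZD1208 minus Vehicle unchanged (Rxra -0.27 with each parental array left out). The side of the threshold never changed, since no receptor passed under any setting. The cause of the turns was not tested.

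The 99th percentile as the olfactory level left 17 receptors above it in all 6 lines (38.6%, against 37.0% of all genes), and the 90th gave 41 (93.2%, against 67.4%). Added after seeing the data, leaving out AZD1208 3 kept the count at 28, and gave 4 receptors above and 3 below all parental arrays (Esrrb, Rorb and Nr2f1). Quantile normalization gave 2 above (Thra and Nr4a2) and 2 below (Pparg and Nr2f1).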
